A study of Mus musculus with 15 samples.

Results

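Matrix metalloproteinases (MMPs), their tissue inhibitors (TIMPs) and the ADAMTS proteases were described across 5 groups of cultured mouse cells. The members were all genes of the deposited array table whose symbol begins with Mmp and a digit, Timp and a digit, or Adamts. Probe sets that carried exactly 1 symbol were used, and each gene was represented by its probe set of highest mean across the 15 arrays. This gave 42 of 18193 genes, of which 18 are Mmp, 4 Timp, 15 Adamts and 5 Adamtsl genes. The members had 78 such probe sets in all, and 21 members had more than 1.

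The study took stromal cells through a hepatogenic protocol and back to their own medium, and hepatocytes into a stromal state, with 3 Affymetrix arrays per group. The dHD28 cells were HD28 cells whose medium was replaced by MSC medium. The HD28 cells were mesenchymal stromal cells given HGF at 20 ng/ml, bFGF at 10 ng/ml and nicotinamide at 0.61 g/L for 7 days, and then oncostatin M at 20 ng/ml, dexamethasone at 1 µmol/L and ITS+ premix. The MLC were primary hepatocytes moved to MSC medium with TGF-β1 at 10 ng/ml to day 7, 5 ng/ml to day 14 and 1 ng/ml to day 28, and then kept in MSC medium alone. The Hepatocyte group was primary hepatocytes in DMEM/F12 with 10% serum. The MSC group was mesenchymal stromal cells in low-glucose DMEM with 10% serum, which is the MSC medium of the dHD28 and MLC groups too. No label tells whether the replicates were separate cultures or animals, and the p-values therefore describe the spread between these samples alone, which may be technical.

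MMPs are zinc proteases that cut collagens, proteoglycans, growth factor binding proteins and other proteins outside the cell, and most are made as inactive precursors. TIMPs bind the active site of MMPs and of some ADAM and ADAMTS proteases and block it. ADAMTS proteases cut proteoglycans and process procollagens, and the ADAMTS-like (Adamtsl) proteins share their ancillary domains but lack the protease domain. In the liver these genes are known mainly from stellate cells, fibroblasts and macrophages during scarring and its resolution.

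Values are log2 expression levels, and a difference of 1 is a factor of 2. Rose, fell and changed are used of genes whose limma p, adjusted by Benjamini-Hochberg over all 18193 genes, was below 0.05 and whose groups differed by a factor of 2 or more. Array medians lay between 4.84 and 4.95, and the lower quartile of all values was 3.53. The mean of 9 hepatocyte markers was 13.1 to 13.3 in Hepatocyte arrays and at most 4.67 in dHD28, MLC and MSC arrays. The mean of 8 stromal markers was 9.28 to 9.96 in the 4 other groups and 5.16 to 6.28 in Hepatocyte arrays. Of these 8, Col1a1, Col1a2, Col3a1, Pdgfra and Pdgfrb were lower in every Hepatocyte array than in every other array. Eng was higher in Hepatocyte arrays (7.49 to 8.30) than in MSC arrays (6.40 to 6.63). Nt5e was level, at 6.05 to 6.30 and 5.91 to 6.11 in the same order. Thy1 was at 4.23 to 4.92 in Hepatocyte arrays and at 3.75 to 4.11 in HD28 arrays. In HD28, the hepatocyte marker mean spanned 4.23 to 11.8, and albumin (Alb) was at 13.8 in replicate 3 and at 3.38 and 3.74 in the other 2 arrays. Means of macrophage (6.37 to 8.03), endothelial (5.91 to 7.14) and stellate cell markers (5.83 to 7.43) were also higher in Hepatocyte arrays than in MSC arrays, where they were at most 4.68, 4.15 and 4.69. Of the stellate cell markers, Lrat, Rgs5 and Reln were higher in every Hepatocyte array, and Des and Cygb overlapped. Cspg4 was lower in Hepatocyte arrays (5.78 to 6.30) than in MSC arrays (6.56 to 7.40). HD28 replicate 3 had the macrophage, endothelial and stellate cell means at 5.68, 4.93 and 5.40, above the other 2 HD28 arrays, where they were at most 4.75, 4.17 and 4.37. The endothelial marker Clec4g, for example, was at 7.32 in replicate 3 and at 4.14 and 4.89 in the others. The part of that array's markers in the results was not tested. Without it, 6 members rose in HD28 against MSC and 6 fell in dHD28 against HD28, by the limits of the test given above. The arrays also fell into 2 classes by the mean signal of 24 poly-A spike-in probe sets, high in 6 arrays (7.35 to 8.5) and low in 9 (4.7 to 5.49). The high class held replicate 2 of dHD28 and HD28, replicates 1 and 2 of MLC, and replicate 1 of Hepatocyte and MSC.

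Of the 42 members, 25 differed among the 5 groups by limma's F test at an adjusted p under 0.05, against 46.8% of all genes tested. In at least 1 of the 6 comparisons of groups 21 members changed, against 34.6% of all genes, and 21 changed in none. The group mean was highest in HD28 for 18 members and in Hepatocyte for 11, and it was lowest in Hepatocyte for 21. The same counts over all genes were not taken, so this order has no baseline. It also includes members whose group means barely differed, such as Mmp17, Mmp24 and Adamtsl1, with spans of 0.14, 0.18 and 0.19. For 7 members all 5 group means lay under the lower quartile of the table, so that these arrays hold little signal for them.

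**Figure D1:**
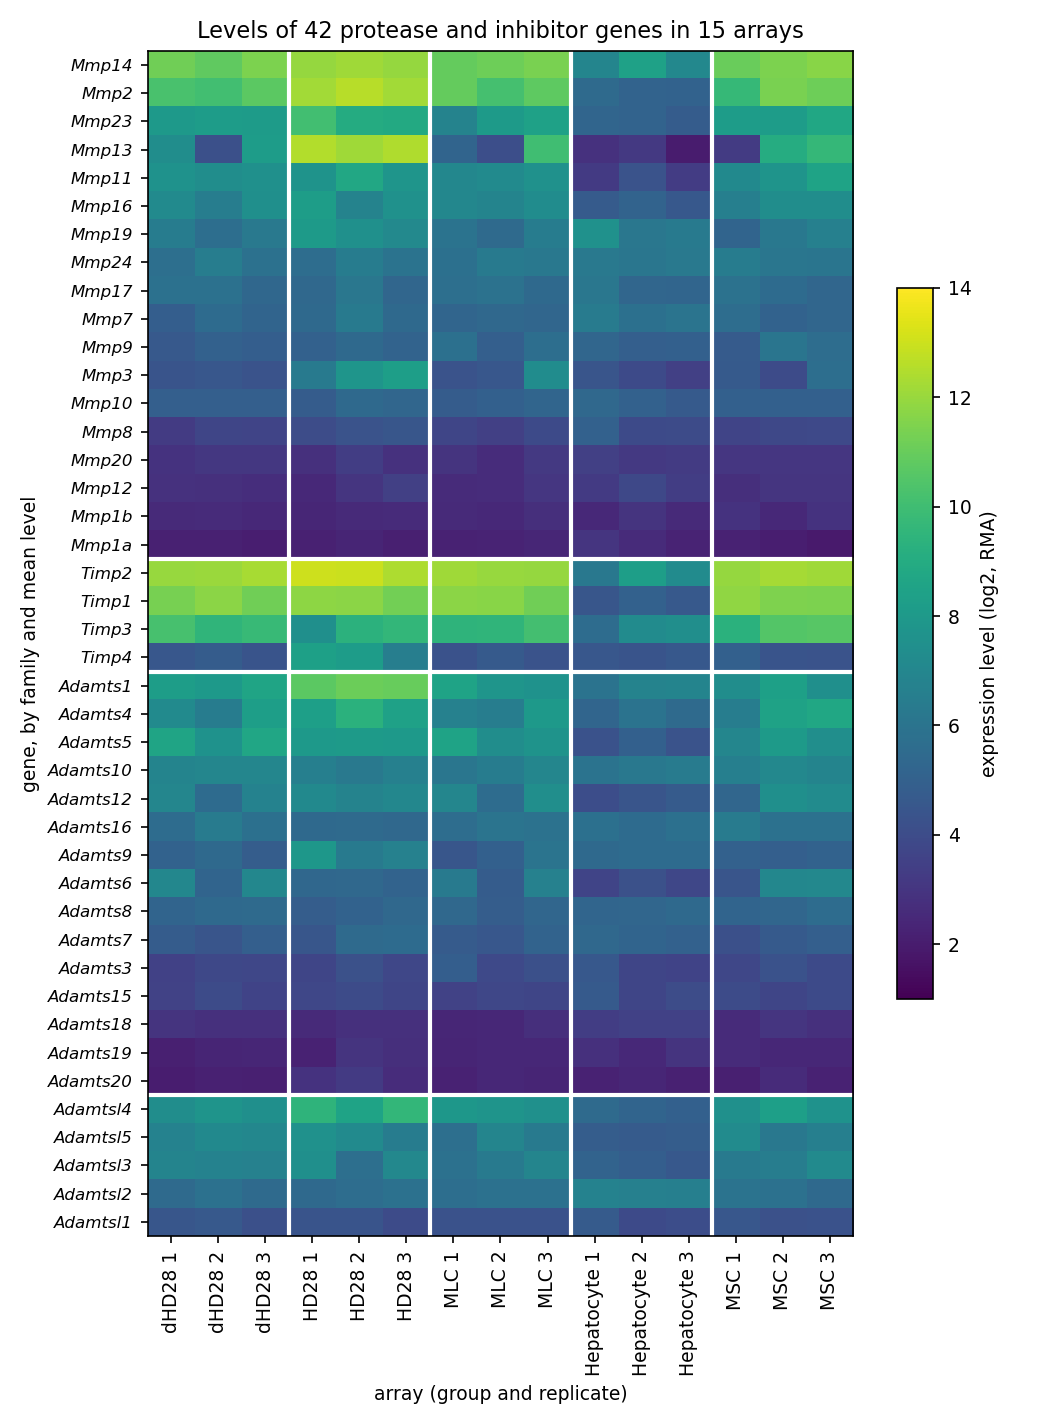
Expression level (log2, colour) of the 42 genes (rows, by family) in the 15 arrays (columns, by group and replicate). Timp1, Timp2, Mmp2 and Mmp14 are bright in the dHD28, HD28, MLC and MSC arrays and darker in the 3 Hepatocyte arrays, and Mmp13 is brightest in the 3 HD28 arrays.

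In the HD28 cells 7 members rose and none fell against MSC, which is 16.7% of the members, against 6.77% of all genes changed in either direction, 3.24% that rose and 3.52% that fell. The count was 4 without HD28 replicate 2, and 3 with only the HD28 and MSC arrays in the fit. The median log2 change was 0.22 over the members and -0.08 over all genes. The 7 were 3 MMPs (Mmp3, Mmp2 and Mmp19), 1 of the 4 TIMPs (Timp4), 2 ADAMTS proteases (Adamts1 and Adamts9) and Adamtsl4. When dHD28 cells were set against HD28, 8 members fell and none rose, which is 19% of the members, against 8.82% of all genes changed, 4.63% that rose and 4.19% that fell. The median log2 change there was -0.30 over the members and 0.05 over all genes. These 2 comparisons share the HD28 arrays, so their values are given side by side below and not as separate evidence. In bulk RNA, fewer cells of a type and less RNA per cell cannot be told apart, and this holds for each difference described.

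Mmp13 is the main interstitial collagenase of the mouse, which cuts fibrillar collagen. It was measured by probe set 1417256_at. It stood at 7.40, 4.15 and 8.20 in dHD28, 12.49, 12.13 and 12.44 in HD28, 5.19, 4.10 and 10.02 in MLC, 2.88, 3.17 and 2.01 in Hepatocyte, and 3.27, 9.06 and 9.66 in MSC. All 3 HD28 arrays were above every other array, while dHD28, MLC and MSC arrays spread widely and overlapped. It fell by 5.77 log2 units in dHD28 against HD28 (SE 1.68, limma adjusted p = 0.0365). This call was lost when dHD28 replicate 1 or 2 or any HD28 replicate was left out, with log2 changes of -6.18 to -4.56 and limma adjusted p of 0.0758 to 0.154. In HD28 it lay 5.02 above MSC with a 95% interval of 1.39 to 8.65, but missed the threshold (SE 1.68, limma adjusted p = 0.0791).

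In dHD28, MLC and MSC the spread of Mmp13 ran with the spike-in class of the arrays. Fitted as a common shift of all groups, Mmp13 was 3.03 log2 units lower in the arrays of high spike-in signal (SE 0.77, limma adjusted p = 0.0219). The values do not show a common shift. In HD28 the high-class array was at 12.13 and the others at 12.49 and 12.44. In Hepatocyte it was at 2.88 and the others at 3.17 and 2.01. With the class as a block, which takes the shift as common, the adjusted p of HD28 against MSC was 0.0106 in limma. Within the high class HD28 lay 8.86 above MSC with 1 array each, and within the low class 3.11 above it with 2 arrays each. Of the 42 members 3 were lower in the high class, namely Mmp13, Adamts6 by 1.16 and Adamts12 by 1.07, against 2.18% of all genes, and none was higher, against 0.033% of all genes. In HD28 the high-class array of Adamts6 was not lower, at 5.39 against 5.34 and 5.13. That of Adamts12 was at 6.83 against 7.19 and 7.04. The count was 0 without dHD28 replicate 2 or MSC replicate 1, and 1 without MLC replicate 2 or 3 or MSC replicate 2. The part of the class in these results was not tested.

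Mmp3, stromelysin-1, cuts proteoglycans and other matrix proteins and activates other MMP precursors. Probe set 1418945_at gave 4.39, 4.51 and 4.33 in dHD28, 6.35, 7.79 and 8.29 in HD28, 4.35, 4.52 and 7.35 in MLC, 4.42, 3.91 and 3.48 in Hepatocyte, and 4.66, 3.98 and 5.69 in MSC. Each HD28 array was above every dHD28 and MSC array, and 1 MLC array stood apart from the other 2. It rose by 2.70 in HD28 against MSC (SE 0.71, limma adjusted p = 0.0272), and dHD28 lay 3.07 below HD28 (log2 change -3.07, SE 0.71, limma adjusted p = 0.0117). The first of these calls was lost when HD28 replicate 2 or 3 or MSC replicate 1 or 2 was left out, with log2 changes of 2.29 to 2.64 and limma adjusted p of 0.0839 to 0.0979.

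Mmp13 and Mmp3 lie in a run of 10 neighbouring MMP genes on chromosome 9, of which 9 are members here. Besides these 2, no member of the run changed in any of the 6 comparisons. The other members of the run are the collagenases Mmp1a, Mmp1b and Mmp8, stromelysin-2 (Mmp10), macrophage elastase (Mmp12), enamelysin (Mmp20) and matrilysin (Mmp7). The mean of Mmp10 was 5.17 in HD28 and 4.99 in MSC, that of Mmp8 4.29 in HD28 and 3.78 in MSC, and that of Mmp12 3.00 in HD28 and 2.93 in MSC. Mmp1a, Mmp1b and Mmp20 had group means of 2.11 to 3.30 throughout, under the lower quartile of the table.

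**Figure D2:**
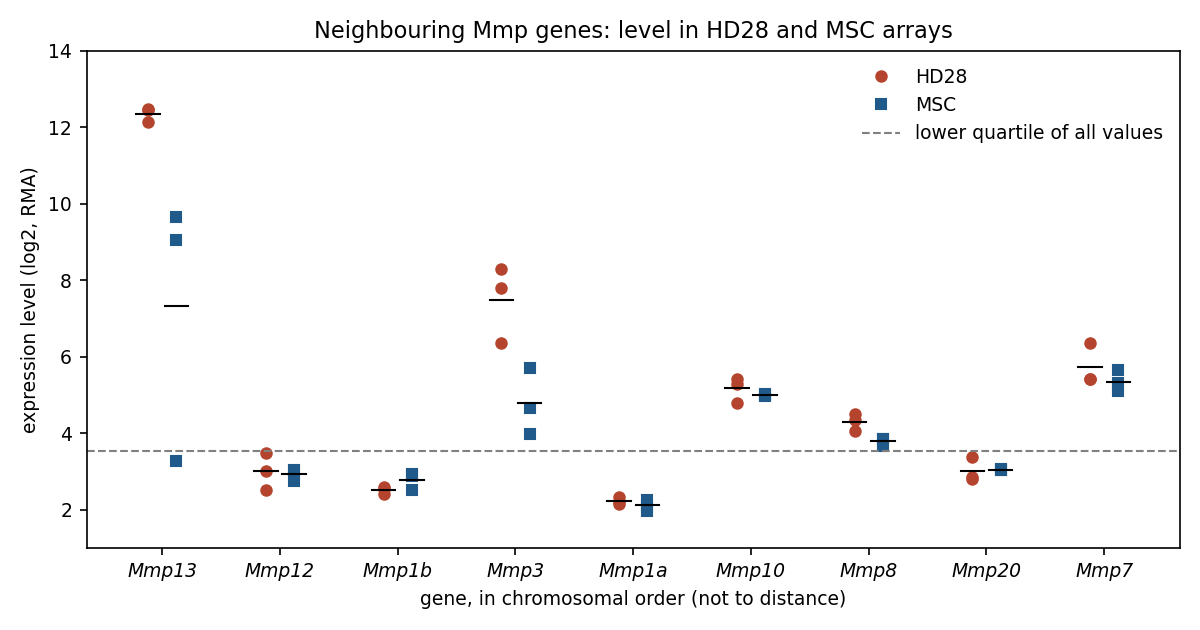
Expression level (log2) of the 9 measured genes of the run on chromosome 9, in chromosomal order, in 3 HD28 arrays (circles) and 3 MSC arrays (squares), with group means as bars and the lower quartile of all values (3.53) dashed. The HD28 arrays of Mmp13 and Mmp3 lie above all their MSC arrays, with means of 12.35 and 7.48 in HD28 against 7.33 and 4.78 in MSC, while Mmp12, Mmp1b, Mmp1a and Mmp20 lie under or near the dashed line in both groups.

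The promoters of this run share sequence letters irrespective of whether the gene changed. Windows of 300 bases, 250 before and 50 after the annotated start, were taken from RefSeq (GRCm38.p6) and were held for 27 of the 42 members. The AP-1 motif TGANTCA, searched on both strands, was in the window of 8 of these 27 genes (29.6%), and in 8.97% of 27025 genes with a window. All 8 were in the run on chromosome 9, in Mmp13, Mmp12, Mmp1b, Mmp3, Mmp1a, Mmp10, Mmp20 and Mmp7, and the motif was in 0 of the 18 members outside the run that had a window. A gene was counted if any of its windows held the letters. Mmp12 and Mmp7 each had a window at another annotated start that lacked the AP-1 letters. The TATA box letters TATAAA were in 11 of 27 member genes (40.7%) and in 15.7% of all genes. The motif TTCNNNGAA, to which STAT proteins bind, was in 1 member gene (3.7%) against 9.55% of all genes, and the glucocorticoid receptor motif AGAACA in 5 (18.5%) against 21.3%. A match is a description of letters and not a site in use.

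The stretch from 110 bases before to 10 bases after the start is shown for the 2 members of the run that changed and for 3 that did not, Mmp12, Mmp10 and Mmp8. Capitals mark TGANTCA and TATAAA, or TTTATA where TATAAA reads on the other strand. The AP-1 letters begin 35 bases before the start in Mmp13, 46 in Mmp3, 44 in Mmp12 and 63 in Mmp10. For Mmp12 the annotated start whose window holds these letters was chosen for display. In the sequence of Mmp8 only the TATA letters are in capitals, and they begin 3 bases before the start. Those of Mmp12 begin after the start, at base 5. Whether any of these letters serve as a TATA box was not tested. The stretches are chr9:7272404-7272523 for Mmp13, chr9:7445712-7445831 for Mmp3, chr9:7347264-7347383 for Mmp12, chr9:7502232-7502351 for Mmp10 and chr9:7558319-7558438 for Mmp8, all on the plus strand of GRCm38.p6 and written 5′ to 3′.
Mmp13: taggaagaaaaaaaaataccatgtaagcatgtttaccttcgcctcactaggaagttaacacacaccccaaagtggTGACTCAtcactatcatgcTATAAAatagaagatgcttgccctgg
Mmp3: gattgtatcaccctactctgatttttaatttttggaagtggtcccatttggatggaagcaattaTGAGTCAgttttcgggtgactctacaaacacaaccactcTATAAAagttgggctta
Mmp12: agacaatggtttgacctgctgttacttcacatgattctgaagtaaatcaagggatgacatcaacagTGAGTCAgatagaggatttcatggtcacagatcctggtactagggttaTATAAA
Mmp10: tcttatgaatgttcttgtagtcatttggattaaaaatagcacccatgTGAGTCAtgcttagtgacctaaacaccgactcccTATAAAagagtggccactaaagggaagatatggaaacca
Mmp8: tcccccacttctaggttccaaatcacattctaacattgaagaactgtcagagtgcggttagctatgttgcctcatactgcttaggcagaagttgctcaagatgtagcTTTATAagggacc

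Mmp2, gelatinase A, cuts denatured collagen and collagen IV, and its precursor is activated at the cell surface by Mmp14 with the help of Timp2. Probe set 1416136_at gave Mmp2 levels of 10.29, 10.08 and 10.74 in dHD28, 12.18, 12.60 and 12.19 in HD28, 10.92, 10.19 and 10.79 in MLC, 5.49, 5.15 and 5.10 in Hepatocyte, and 9.73, 11.41 and 11.12 in MSC. The HD28 arrays were above all others, the Hepatocyte arrays far below all others, and dHD28, MLC and MSC arrays overlapped. It rose by 1.57 in HD28 against MSC (SE 0.36, limma adjusted p = 0.0138), a call that was lost without HD28 replicate 2 (log2 change 1.43, limma adjusted p = 0.0594). In dHD28 against HD28 it fell by 1.96 log2 units (SE 0.36, limma adjusted p = 0.00312). The other gelatinase, Mmp9, changed in no comparison, with group means of 4.85 in dHD28, 5.22 in HD28, 5.48 in MLC, 5.08 in Hepatocyte and 5.48 in MSC.

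Mmp14, the membrane-bound MT1-MMP, stood by probe set 1448383_at at 11.19, 10.81 and 11.41 in dHD28, 11.92, 12.12 and 11.93 in HD28, 10.92, 11.15 and 11.41 in MLC, 6.94, 8.46 and 7.06 in Hepatocyte, and 11.05, 11.45 and 11.68 in MSC. All HD28 arrays were higher than all MSC arrays and all dHD28 arrays, but the differences were small. Mmp14 was 0.60 higher in HD28 than in MSC (SE 0.33, limma adjusted p = 0.303) and differed by -0.85 in dHD28 against HD28 (SE 0.33, limma adjusted p = 0.114), and neither passed the test. Other membrane-associated members did not pass either. Mmp23 differed by 0.98 in HD28 against MSC (limma adjusted p = 0.136) and by -1.23 in dHD28 against HD28 (limma adjusted p = 0.0502), just outside the threshold. Mmp16, another membrane-type protease, differed by 0.43 in HD28 against MSC (limma adjusted p = 0.513).

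Mmp19, a secreted protease that cuts basement membrane proteins, had a mean of 6.14 ± 0.40 in dHD28, 7.57 ± 0.49 in HD28 and 6.02 ± 0.76 in MSC (SD, n = 3 each). It rose by 1.54 in HD28 against MSC (limma adjusted p = 0.0398) and fell by 1.42 log2 units in dHD28 against HD28 (limma adjusted p = 0.0478). Both calls lie at the edge of the threshold. The first was lost without dHD28 replicate 1 or 3, HD28 replicate 1 or 2, MLC replicate 1 or MSC replicate 1 or 2, with limma adjusted p of 0.0507 to 0.175. The second was lost without any dHD28 or HD28 replicate, MLC replicate 1 or 2, Hepatocyte replicate 3 or MSC replicate 2, with limma adjusted p of 0.0502 to 0.174. With the replicate number as a block the second had a limma adjusted p of 0.0515, and after quantile normalization 0.0506. The other Mmp19 probe set, 1421976_at, had changes of 1.04 and -0.96 in the same order in a fit over all probe sets. Neither passed (limma adjusted p = 0.164 and 0.177). With the mean of its probe sets both calls were lost (limma adjusted p = 0.0595 and 0.0685).

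Adamts1 cuts the proteoglycans versican and aggrecan. Probe set 1450716_at gave 8.25, 8.0 and 8.57 in dHD28, 10.74, 11.09 and 11.00 in HD28, 8.52, 7.79 and 7.61 in MLC, 5.94, 6.82 and 6.87 in Hepatocyte, and 7.37, 8.40 and 7.48 in MSC. The 3 HD28 arrays lay close together and above all others, and the Hepatocyte arrays were the lowest. Adamts1 rose by 3.19 in HD28 against MSC (SE 0.33, limma adjusted p = 5.8e-05), a fold of 9.13, and fell by 2.67 log2 units in dHD28 against HD28 (SE 0.33, limma adjusted p = 0.000193). It had the largest change of the members that passed the test in HD28 against MSC. Its promoter window is shown for that reason, chr16:85803064-85803363 on the minus strand of GRCm38.p6 (RefSeq), with capitals for TATAAA, which begins 32 bases before the start.
Adamts1: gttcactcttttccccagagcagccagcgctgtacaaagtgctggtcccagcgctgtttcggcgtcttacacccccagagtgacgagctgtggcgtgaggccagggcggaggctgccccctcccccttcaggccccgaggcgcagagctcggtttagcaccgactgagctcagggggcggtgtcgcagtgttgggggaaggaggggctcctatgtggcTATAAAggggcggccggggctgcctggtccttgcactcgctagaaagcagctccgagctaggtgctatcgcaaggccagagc

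Adamts9, also a protease of versican, gave 5.07, 5.46 and 4.85 in dHD28, 7.91, 6.34 and 6.71 in HD28, 4.48, 4.98 and 6.0 in MLC, 5.42, 5.52 and 5.56 in Hepatocyte, and 5.01, 4.93 and 5.08 in MSC with probe set 1437785_at. The HD28 arrays were above all others, with replicate 1 the highest. It rose by 1.98 in HD28 against MSC (SE 0.39, limma adjusted p = 0.00565) and fell by 1.86 log2 units in dHD28 against HD28 (SE 0.39, limma adjusted p = 0.0065). Its other 2 probe sets had changes of 1.24 and -0.14 in HD28 against MSC that did not pass. The first, of 1430352_at, rested on HD28 replicate 1 at 5.75, with the other HD28 arrays at 2.30 and 2.48. With the mean of all Adamts9 probe sets the limma adjusted p was 0.0825 there and 0.0593 on return. Adamtsl4, an ADAMTS-like protein that binds fibrillin microfibrils, rose by 1.37 in HD28 against MSC (SE 0.28, limma adjusted p = 0.00703) and fell by 1.68 log2 units in dHD28 against HD28 (SE 0.28, limma adjusted p = 0.00153). With only the HD28 and MSC arrays in the fit, its first call was lost (limma adjusted p = 0.0738). The aggrecan-cutting proteases Adamts4 and Adamts5 did not pass in either comparison. Adamts4 averaged 7.32 ± 0.90 in dHD28, 8.68 ± 0.53 in HD28 and 7.92 ± 1.23 in MSC, and Adamts5 averaged 8.30 ± 0.59 in dHD28, 8.04 ± 0.05 in HD28 and 7.51 ± 0.56 in MSC (SD, n = 3 each).

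**Figure D3:**
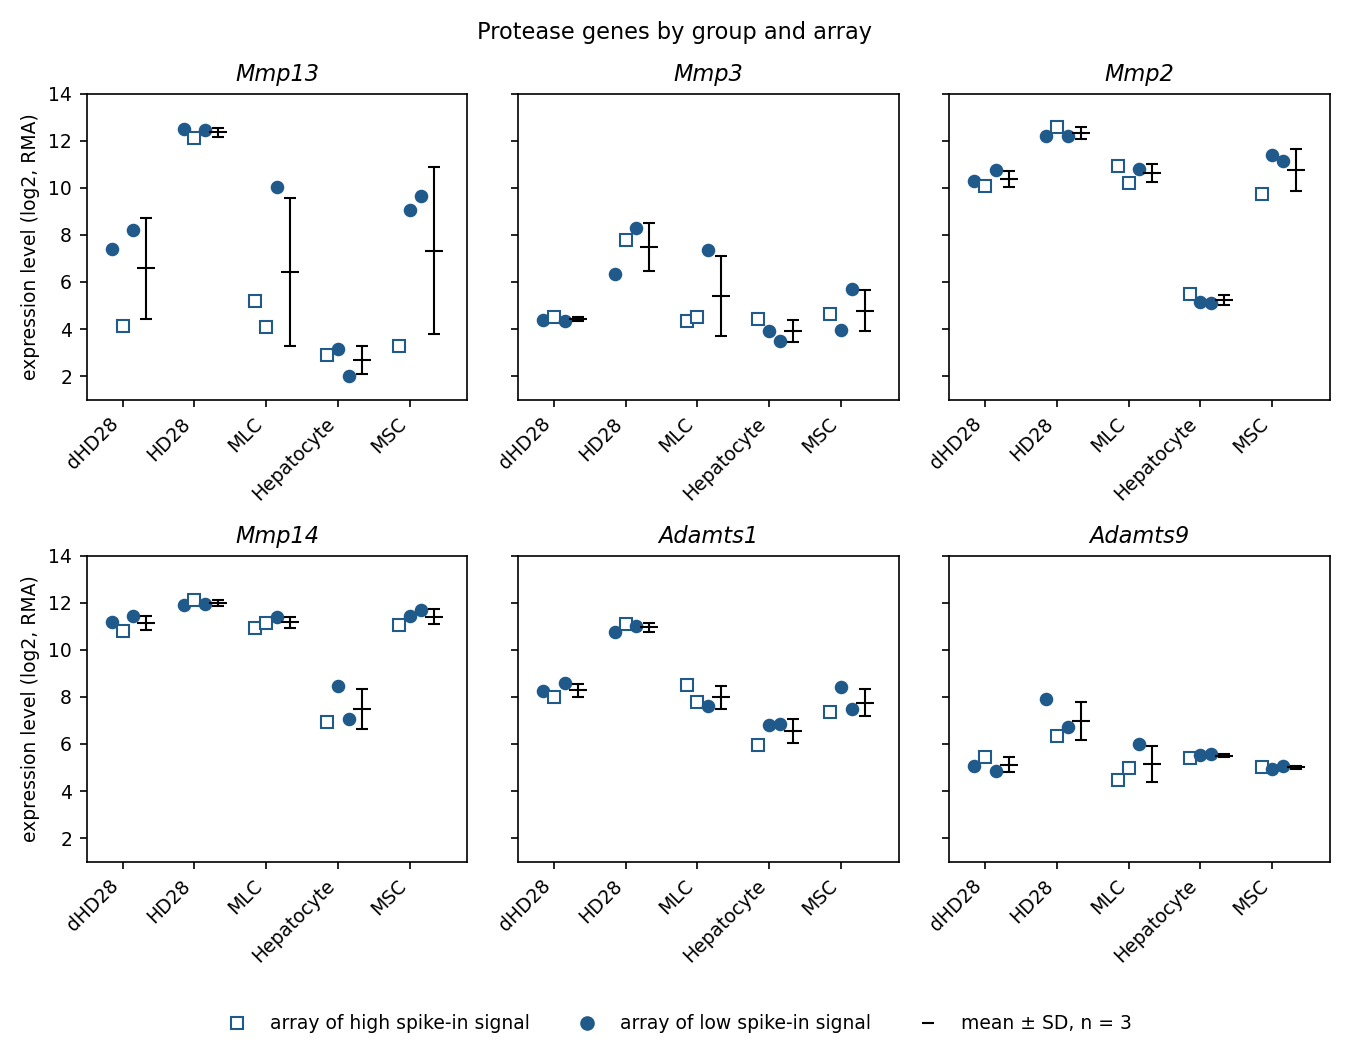
Expression level (log2) of Mmp13, Mmp3, Mmp2, Mmp14, Adamts1 and Adamts9 by group, with 1 point per array, open squares for arrays of high spike-in signal, and mean ± SD at the right of each group (n = 3). The 3 HD28 arrays lie above all MSC arrays in all 6 panels, and Mmp13 is at 3.27 in the MSC array of high spike-in signal and at 9.06 and 9.66 in the other 2.

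Of the 4 inhibitors, by the probe set that stood for each gene, Timp4 alone passed the test in HD28 against MSC and in dHD28 against HD28. By probe set 1450974_at it stood at 4.55, 4.77 and 4.38 in dHD28, 8.40, 8.18 and 6.56 in HD28, 4.28, 4.69 and 4.33 in MLC, 4.54, 4.36 and 4.57 in Hepatocyte, and 4.98, 4.36 and 4.35 in MSC. HD28 was the high group, and the 4 others overlapped. Timp4 rose by 3.15 in HD28 against MSC (SE 0.37, limma adjusted p = 0.000162), a fold of 8.86, and fell by 3.15 log2 units in dHD28 against HD28 (SE 0.37, limma adjusted p = 0.000154). HD28 replicate 3, the array with high albumin, was 1.72 below the mean of the other 2 for Timp4 and 1.22 above it for Mmp3. The second Timp4 probe set (1423405_at) stood at 3.18, 3.79 and 3.85 in dHD28, 8.69, 10.22 and 8.51 in HD28, and 2.74, 2.49 and 3.64 in MSC. Its change was 6.18 in HD28 against MSC in a fit over all probe sets (limma adjusted p = 2.67e-06).

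Timp1, known as an inducible inhibitor in stromal cells, stood by probe set 1460227_at at 11.33, 11.75 and 11.20 in dHD28, 11.80, 11.73 and 11.22 in HD28, 11.75, 11.71 and 11.18 in MLC, 4.47, 5.03 and 4.64 in Hepatocyte, and 11.84, 11.48 and 11.44 in MSC. The dHD28, HD28, MLC and MSC arrays overlapped in a narrow band, and the Hepatocyte arrays were far below it. The difference in HD28 against MSC was -0.01 with a 95% interval of -0.50 to 0.49. Timp2, which both blocks Mmp2 and helps its activation, stood by probe set 1460287_at at 11.97, 12.04 and 12.29 in dHD28, 13.02, 12.96 and 12.42 in HD28, 12.15, 11.98 and 11.93 in MLC, 6.18, 8.27 and 7.28 in Hepatocyte, and 11.92, 12.25 and 12.15 in MSC. All HD28 arrays were above all MSC and dHD28 arrays, but the difference of 0.69 in HD28 against MSC did not pass (SE 0.37, limma adjusted p = 0.29), nor did that of -0.70 in dHD28 against HD28 (limma adjusted p = 0.266). Of the 5 further Timp2 probe sets, 1450040_at fell by 1.35 log2 units in dHD28 against HD28 in a fit over all probe sets (limma adjusted p = 0.0409), and the other 4 differed by -1.06 to -0.26 without passing.

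Timp3 binds to the matrix and also inhibits several ADAM and ADAMTS proteases. By probe set 1449335_at it stood at 10.20, 9.51 and 9.78 in dHD28, 7.49, 9.34 and 9.63 in HD28, 9.44, 9.49 and 10.10 in MLC, 5.59, 7.25 and 7.45 in Hepatocyte, and 9.32, 10.51 and 10.65 in MSC. HD28 replicate 1 was the lowest of the 12 arrays outside the Hepatocyte group, and the HD28 and MSC arrays overlapped. The difference was -1.34 in HD28 against MSC (SE 0.58, limma adjusted p = 0.175). Another Timp3 probe set (1419088_at) fell by 1.48 log2 units there in a fit over all probe sets (limma adjusted p = 0.0117) and rose by 1.51 in dHD28 against HD28 (limma adjusted p = 0.00819), so the probe sets disagree on the call and share its direction.

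**Figure D4:**
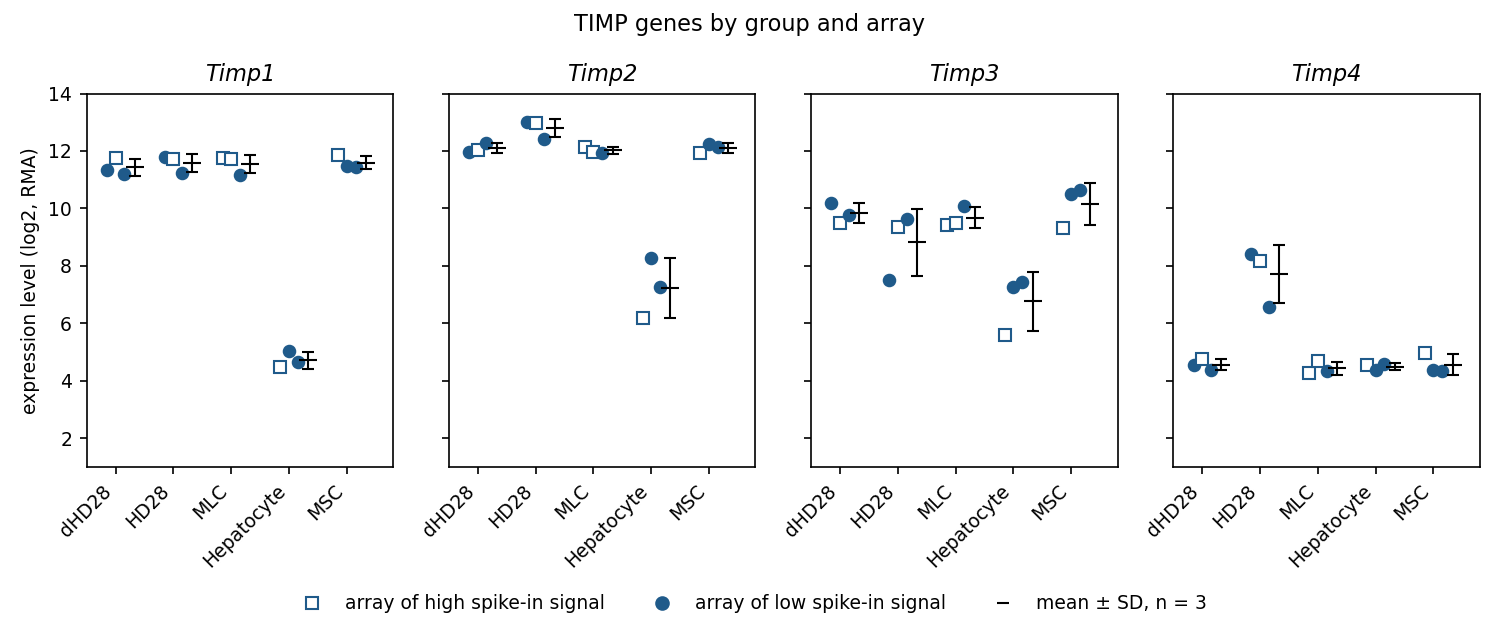
Expression level (log2) of Timp1, Timp2, Timp3 and Timp4 by group, with 1 point per array, open squares for arrays of high spike-in signal, and mean ± SD at the right of each group (n = 3). Timp1 is at 11.18 to 11.84 in all groups but Hepatocyte, where it is at 4.47 to 5.03, while Timp4 is at 6.56 to 8.40 in HD28 and at 4.28 to 4.98 elsewhere.

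Of the 42 members none changed in dHD28 against MSC, where limma called 0% of all genes. At an unadjusted p under 0.05 there were 0 members and 205 of 18193 genes (1.13%). With no true difference and a spread that suits this pair, a fraction near 0.05 of all genes would pass that limit. The fraction was smaller, so the fit may be too cautious for these groups. The lack of calls is therefore no proof that they are alike. All 42 log2 differences were within a factor of 2, but the 95% interval lay within that factor for 28 of them, so larger differences of the other 14 were not detectable with 3 arrays a group. The difference of Adamts1 was 0.52 (95% interval -0.19 to 1.22), that of Adamts5 0.79 (-0.00 to 1.58), that of Timp4 0.00 (-0.80 to 0.80) and that of Mmp13 -0.75 (-4.38 to 2.88). The interval of Mmp13 was the widest of these.

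In MLC 15 members rose and none fell against Hepatocyte, which is 35.7% of the members, against 30.5% of all genes changed and 18.4% that rose. The share changed was near that of all genes. They were 5 of 18 MMPs, 3 of 4 TIMPs, 4 of 15 ADAMTS and 3 of 5 ADAMTS-like genes. In Hepatocyte against MSC 17 members fell and none rose, which is 40.5%, against 30.1% of all genes changed and 18.3% that fell. They were 6 MMPs, 3 TIMPs, 5 ADAMTS and 3 ADAMTS-like genes. These comparisons share the Hepatocyte arrays. After quantile normalization 16 members rose and 1 fell in MLC against Hepatocyte, and 1 rose and 16 fell in Hepatocyte against MSC. Centring the arrays on housekeeping genes moved the median of all genes by -0.34 in MLC against Hepatocyte and gave 15 members that rose and 5 that fell, with 2498 genes higher and 3161 lower, against 3353 higher and 2188 lower without it. In Hepatocyte against MSC it moved the median by 0.29 and gave 2 members that rose and 16 that fell, with 2841 genes higher and 2593 lower, against 2149 higher and 3327 lower.

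Timp1 had the largest change of the members in both comparisons. It rose by 6.84 in MLC against Hepatocyte (SE 0.23, limma adjusted p = 5.57e-10), a fold of 114, and fell by 6.87 log2 units in Hepatocyte against MSC (SE 0.23, limma adjusted p = 5.93e-10). Mmp2 rose by 5.39 in MLC against Hepatocyte (SE 0.36, limma adjusted p = 1.09e-07) and fell by 5.51 log2 units in Hepatocyte against MSC (limma adjusted p = 9.47e-08). Timp2 rose by 4.77 in MLC against Hepatocyte (SE 0.37, limma adjusted p = 3.7e-07) and Mmp14 by 3.68 (SE 0.33, limma adjusted p = 1.23e-06). All 3 genes of the Mmp2 activation complex at the cell surface were higher in MLC than in Hepatocyte, in all arrays. Timp3 rose by 2.91 in MLC against Hepatocyte (SE 0.58, limma adjusted p = 0.000944), whereas Timp4 differed by -0.06 (95% interval -0.86 to 0.74).

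Among the other MMPs, Mmp11 (stromelysin-3) rose by 3.66, Mmp23 by 2.73 and Mmp16 by 2.26 in MLC against Hepatocyte. The ADAMTS proteases that rose there were Adamts5 by 3.32, Adamts12 by 2.23, Adamts6 by 2.10 and Adamts1 by 1.43, and the ADAMTS-like genes were Adamtsl4 by 2.51, Adamtsl5 by 1.52 and Adamtsl3 by 1.5. Limma adjusted p of these 10 ran from 4.21e-06 for Mmp11 to 0.0244 for Adamts6. The call of Adamts6 was lost without MLC replicate 1 or 3 or Hepatocyte replicate 1 or 3, with log2 changes of 1.72 to 2.04 and limma adjusted p of 0.0626 to 0.0924. With the mean of all its probe sets the change of Adamts12 was 0.94, under the fold limit. The other Adamts12 probe set, 1446666_at, had group means of 2.00 to 2.39, under the lower quartile of the table. Mmp13 differed by 3.75 in MLC against Hepatocyte without passing (SE 1.68, limma adjusted p = 0.0849), and by the block of spike-in class its limma adjusted p was 0.00447. That block takes the class shift of Mmp13 as common to all groups, while the classes lay far apart in MLC and not in Hepatocyte.

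In Hepatocyte against MSC, Mmp13 fell by 4.64 log2 units (SE 1.68, limma adjusted p = 0.0379), with a Hepatocyte mean of 2.69, under the lower quartile of the table, so that the size of this difference rests on values near the floor of the arrays. It was -0.39 within the high spike-in class, with 1 array a group, and -6.77 within the low class, with 2 arrays a group, and the part of the class was not tested. The call was lost without any of the 3 Hepatocyte replicates or without MSC replicate 2 or 3, with log2 changes of -4.89 to -3.48 and limma adjusted p of 0.0629 to 0.152. Adamts6 fell by 2.31 log2 units there, a call lost without MSC replicate 2 or 3 (limma adjusted p of 0.0702 and 0.0708), and Adamts1 fell by 1.21 log2 units, which came under the fold limit without Hepatocyte replicate 1 (-0.91) or MSC replicate 2 (-0.88), and also after quantile normalization (-0.94) or housekeeping centring (-0.92). Adamts4, which did not pass in MLC against Hepatocyte (1.51, limma adjusted p = 0.0551), fell by 2.35 log2 units in Hepatocyte against MSC (limma adjusted p = 0.00579). Its second probe set, 1455965_at, had the opposite sign in both comparisons in a fit over all probe sets. It differed by -0.16 and 0.06 in the same order, and neither passed (limma adjusted p = 0.466 and 0.807). Adamts5 fell by 2.96 and Mmp11 by 4.19 log2 units in Hepatocyte against MSC. No member rose in Hepatocyte against MSC, although 14 members had a positive difference. Adamtsl2, an ADAMTS-like protein tied to TGF-β availability and known from the liver, was the clearest of these by adjusted p, at 6.68 ± 0.09 in Hepatocyte and 5.75 ± 0.29 in MSC (SD, n = 3 each). Its difference of 0.93 had a limma adjusted p of 0.00051 but was under the fold limit, and this gene changed in no comparison.

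None of the 42 members changed in MLC against MSC either, where limma called 0% of all genes. At an unadjusted p under 0.05 there were 0 members and 91 of 18193 genes (0.5%). This too is a smaller fraction than the 0.05 that the limit alone would give. The fit may thus be too cautious here, and the lack of calls is no proof of likeness. All 42 differences lay within a factor of 2 and the 95% interval did so for 31 of them. Timp1 differed by -0.04 (95% interval -0.53 to 0.46), Mmp2 by -0.12 (-0.90 to 0.66) and Mmp3 by 0.63 (-0.91 to 2.16). For Mmp3 and Mmp13, MLC replicate 3 stood high, at 7.35 and 10.02, and the other 2 MLC arrays low, at 4.35 and 4.52 for Mmp3 and at 5.19 and 4.10 for Mmp13. MLC replicate 3 is the 1 MLC array of low spike-in signal.

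The changes in the 2 arms that ended in MSC medium were set against each other by testing their difference, MLC minus Hepatocyte less dHD28 minus HD28, a test added after the values had been seen. The labels give TGF-β1 for the MLC arm and not for dHD28, so starting state and treatment cannot be told apart in it. By arithmetic it also equals HD28 minus Hepatocyte plus MLC minus dHD28. Where MLC and dHD28 lie close, it therefore restates the gap between HD28 and Hepatocyte. Mean Timp1 was 11.58 in HD28, 4.71 in Hepatocyte, 11.55 in MLC and 11.43 in dHD28. Mean Mmp2 was 12.32, 5.25, 10.63 and 10.37 in that order. By the same limits the difference passed for 17 of 42 members (40.5%), against 23.7% of all genes. The count is thus not separate evidence from the gap between the starting groups. For Mmp2 the change was 5.39 in MLC against Hepatocyte and -1.96 in dHD28 against HD28, a difference of 7.34 (SE 0.51, limma adjusted p = 8.81e-07). For Timp1 the changes were 6.84 and -0.15, and for Timp4 they were -0.06 and -3.15, in the same order. The differences were 6.99 for Timp1 and 3.09 for Timp4, with SE of 0.32 and 0.52. For Timp3 the changes of 2.91 and 1.01 did not differ by the test (difference 1.90, SE 0.82, limma adjusted p = 0.102).

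**Figure D5:**
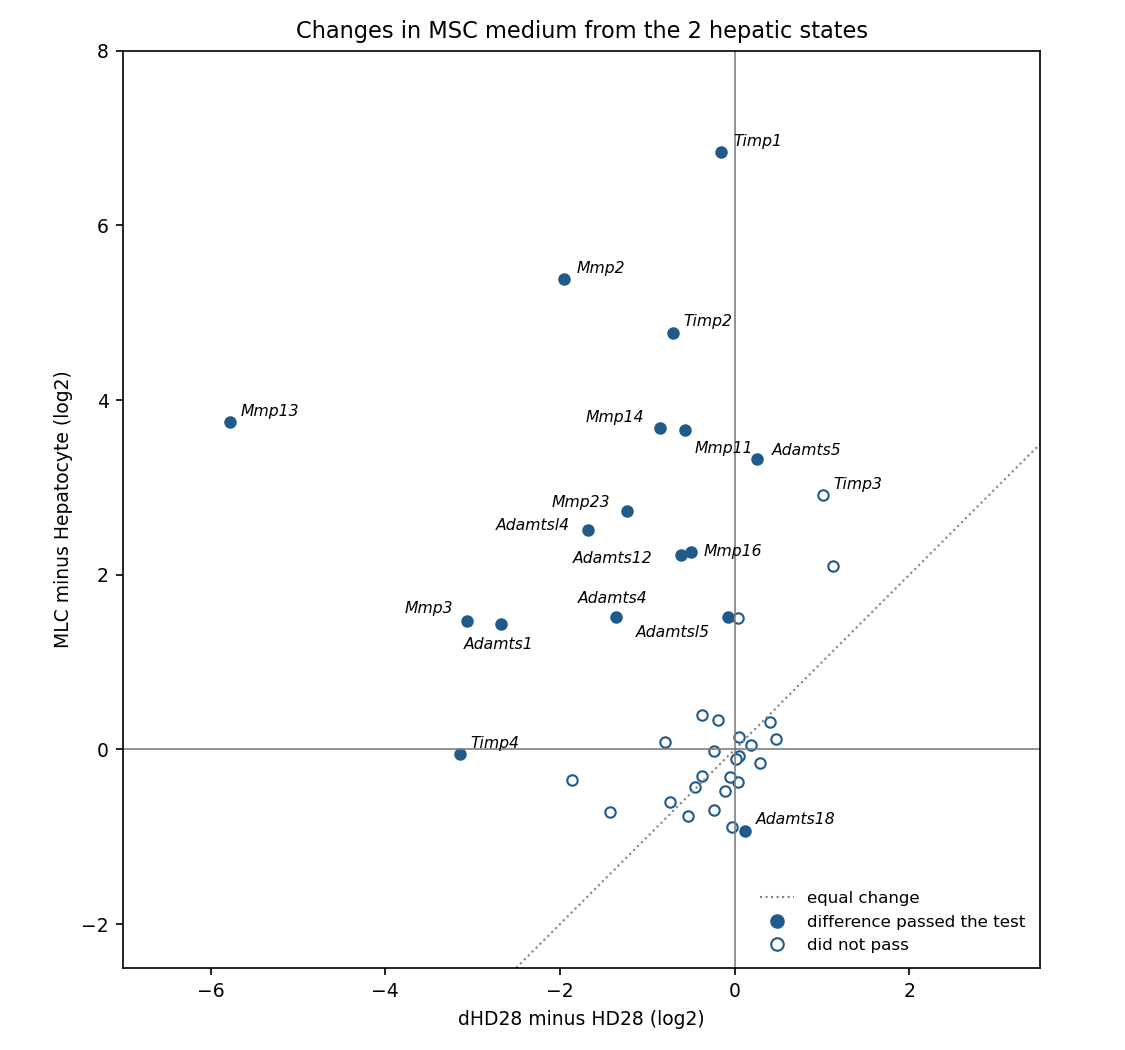
Log2 change in dHD28 against HD28 (horizontal) and in MLC against Hepatocyte (vertical) for the 42 genes, with filled points where the difference between the changes passed the test and a dotted line where both changes are equal. Mmp13, Timp4, Mmp3 and Adamts1 lie farthest to the left, at -5.77 to -2.67, and Timp1 lies at the top, at 6.84 and close to 0 on the horizontal axis.

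Of the 21 members that changed in no comparison, the 4 with the highest means over all arrays were Adamts10 (6.60), Mmp24 (6.12), Adamtsl2 (5.90) and Adamts16 (5.80). By its other probe set, 1441309_at, Adamts10 did pass in a fit over all probe sets, with 1.04 in dHD28 against HD28 (limma adjusted p = 0.0239), 1.34 in MLC against Hepatocyte (limma adjusted p = 0.00118) and -1.14 in Hepatocyte against MSC (limma adjusted p = 0.00385). It was the 1 of 10 further probe sets of such members with a call. Mmp24, a membrane-type MMP known from the nervous system, had group means of 6.03 to 6.21. Changed members with several probe sets had 53 further probe sets over the comparisons. Of these 35 changed the same way, 12 had the same sign without a call, 6 the opposite sign without a call, and 0 changed the opposite way. Within the high spike-in class, with 1 array a group, the differences of the changed members ran from 1.01 to 3.72 in HD28 against MSC and from -7.97 to -0.82 in dHD28 against HD28. Within the low class, with 2 arrays a group, they ran from 0.92 to 3.13 and from -4.67 to -1.23 in the same order. In MLC against Hepatocyte they ran from 0.98 to 7.27 in the high class (2 MLC arrays and 1 Hepatocyte array) and from 0.77 to 6.35 in the low class (1 and 2 arrays). The ranges in Hepatocyte against MSC were -7.37 to -0.39 in the high class and -6.77 to -1.10 in the low class. These are the arrays on which the members were called, so their shared sign is no separate evidence.

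Genes around these proteases were read from 4 lists. Over all genes, 3.24% rose and 3.52% fell in HD28 against MSC, and 4.63% and 4.19% did so in dHD28 against HD28. In MLC against Hepatocyte the shares were 18.4% and 12%, and in Hepatocyte against MSC 11.8% and 18.3%. The counts of all 4 lists stand beside these shares, and whether they differ from them was not tested. Of 20 measured genes for activation, anchoring or inhibition of MMPs outside the TIMPs, none rose and 1 fell in HD28 against MSC. This was Plaur, the receptor of the plasminogen activator urokinase, which fell by 2.02 log2 units (limma adjusted p = 0.0176) and rose by 2.35 in dHD28 against HD28. In dHD28 against HD28, 1 rose and 1 fell, and the one that fell was Plat, tissue plasminogen activator, by 2.27 log2 units (limma adjusted p = 0.00635). In Hepatocyte against MSC 5 rose and 5 fell, led by plasminogen (Plg, 8.65), the protease inhibitor Tfpi2 (7.85) and the plasmin inhibitor Serpinf2 (6.22). Plasminogen and Serpinf2 are plasma proteins that the liver makes. In MLC against Hepatocyte 5 rose and 5 fell, and Plg fell by 8.68, Tfpi2 by 8.0 and Serpinf2 by 6.11 log2 units.

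Of 21 measured proteins that MMPs or ADAMTS proteases cut or bind, 4 rose and none fell in HD28 against MSC. Over all genes 3.24% rose and 3.52% fell there. The small proteoglycan decorin (Dcn) rose by 4.94 (SE 0.99, limma adjusted p = 0.0062), cartilage oligomeric matrix protein (Comp) by 2.33 (SE 0.21, limma adjusted p = 2.09e-05), and the basement membrane collagen chain Col4a1 by 1.42. In dHD28 against HD28, 1 rose and 3 fell, with Dcn at -5.82, Comp at -2.40 and Matn3, a cartilage matrix protein, at 1.16. In MLC against Hepatocyte 7 rose and 3 fell, led by the fibrillar collagens Col1a1 (8.73) and Col1a2 (6.64) and by versican (Vcan, 6.17). In Hepatocyte against MSC 3 rose and 7 fell, led by Col1a1 (-8.84), Col1a2 (-6.75) and Vcan (-6.17).

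Of 18 measured transcription factors known to act at MMP promoters, 1 rose and 3 fell in HD28 against MSC. Cebpd, which oncostatin M and glucocorticoids are known to induce, rose by 2.86 (limma adjusted p = 0.000213). The AP-1 subunit Fosl1 fell by 2.22 log2 units (limma adjusted p = 0.00331), and the ETS factor Etv5 fell by 2.10 log2 units (limma adjusted p = 0.000749). In dHD28 against HD28, 3 rose and 1 fell, with Cebpd at -2.43, Etv5 at 2.23 and Fosl1 at 2.18. In MLC against Hepatocyte 5 rose and none fell, led by the AP-1 subunits Fosl2 (4.38) and Fosl1 (3.39) and by Etv5 (2.08), and in Hepatocyte against MSC 4 fell, led by Fosl2 (-4.14), Fosl1 (-3.45) and Etv5 (-2.21). Of 18 ADAM, astacin and neprilysin-family metalloproteinases, none rose and 1 fell in HD28 against MSC, Adam19 by 1.74 log2 units. In dHD28 against HD28, 1 rose and 1 fell, Adam19 at 1.63 and Adam22 at -1.80. In MLC against Hepatocyte 3 rose and 2 fell, led by neprilysin (Mme, -3.78), Adam12 (3.01) and Adam19 (2.46). In Hepatocyte against MSC 1 rose and 3 fell, led by Adam12 (-2.81), Adam19 (-2.53) and Adam23 (-2.53). None of the genes of the 4 lists changed in dHD28 against MSC or in MLC against MSC.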

How the data were processed

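RNA from 15 mouse cell samples in 5 groups of 3 was measured on Affymetrix mouse arrays. The authors deposited 1 table of log2 values with 45101 probe sets, made with RMA per the submitters' processing notes, which give no version. Base 2 of the logarithm was inferred from the span of the values (1.32 to 14.1), since no source states it. Precision is limited by the number of arrays, which carry no read depth. Probe sets with exactly 1 symbol in the array annotation were kept, and for each gene the one with the highest mean, which left 18193 genes.

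Group means were fitted in limma 3.58.1 (R 4.3.3, lmFit and eBayes) using every array, with 10 residual degrees of freedom, so that standard errors pool the spread of all groups. Tests were two-sided and adjusted by Benjamini-Hochberg over all genes. The fit was run on simulated data with known changes. That simulation had independent normal noise and no spike-in class shift, so it does not test the fit under such a shift. Group means are given with their SD (n = 3). The spike-in classes were split at the largest gap of the mean poly-A control signal, which is a technical measure. The highest correlation between 2 arrays was 0.996, and 0 pairs were identical.

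The members and the 4 gene lists were chosen with earlier results of these data known. All array values are given for the TIMPs and, from each comparison, for the 4 changed members with the largest change in it. Other members are named where they changed or, by mean, as the 4 highest that did not. From each list up to 3 changed genes with the largest change are named in each comparison. The other members of the run on chromosome 9, and Mmp9, Mmp23, Adamts4 and Adamtsl2 where they did not pass, were named after their values were seen.

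Same-number replicates of dHD28 and HD28 deviated together from their group means (correlations 0.32, 0.28 and 0.12), and such arrays there also share the spike-in class. In each other comparison at least 1 pair was under 0.1. The correlations were -0.29, -0.64 and 0.69 in dHD28 against MSC, and -0.21, -0.68 and 0.77 in MLC against MSC. The pairs at 0.69 and 0.77 shared the spike-in class, and those at -0.64 and -0.68 did not. What this did to the spread in these comparisons was not tested. The labels do not tie a number to an animal, batch or day. Alternatives were other treatments of probe sets, a filter on dim genes, quantile normalization again, centring on housekeeping genes, trended and robust variance, only the arrays compared, no fold limit, a block for the replicate number or the spike-in class, and the removal of each array in turn. Promoter windows came from RefSeq (GRCm38.p6), and 15 members had none in the table used. Protein sequences were not used here.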

Additional observations from a re-analysis of the deposited data

Results flagged for a closer look

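For 17 members the log2 change in MLC against Hepatocyte differed from that in dHD28 against HD28 by a test of the difference itself in limma, with an adjusted p below 0.05 and a factor of 2 or more, and 23.7% of all genes did so. The difference is MLC minus Hepatocyte less dHD28 minus HD28, which equals HD28 minus Hepatocyte plus MLC minus dHD28. Where MLC and dHD28 lie close, it restates the gap between the starting groups. Its value was 9.52 for Mmp13, 7.34 for Mmp2, 4.53 for Mmp3 and 4.53 for Mmp14. It was 4.23 for Mmp11, 3.96 for Mmp23 and 2.76 for Mmp16. Among the inhibitors it was 6.99 for Timp1, 5.48 for Timp2 and 3.09 for Timp4. Among the ADAMTS proteases it was 4.10 for Adamts1, 3.06 for Adamts5, 2.87 for Adamts4, 2.84 for Adamts12 and -1.05 for Adamts18, and among the ADAMTS-like genes 4.19 for Adamtsl4 and 1.60 for Adamtsl5. Adamts18 was the 1 negative difference, with every group mean at 2.54 to 3.47, under the lower quartile of the table. Of the 17, Mmp13, Mmp3, Mmp14, Mmp11, Timp1, Timp2, Timp4, Mmp23, Mmp16, Adamts4, Adamts5, Adamts12, Adamtsl5 and Adamts18 passed the test in at most 1 of the 2 comparisons that the difference is made of.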

How the results depend on the processing

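With 3 arrays a group, calls near the threshold moved. The number of members that rose in HD28 against MSC was 3 instead of 7 with only the arrays of the 2 groups in the fit, where the calls of Mmp3, Mmp2, Mmp19 and Adamtsl4 were lost, and 4 to 8 when 1 array was left out, with 4 without HD28 replicate 2. Leaving out 1 array gave 6 to 9 members changed in either direction in dHD28 against HD28, 14 to 17 in MLC against Hepatocyte and 14 to 18 in Hepatocyte against MSC. In dHD28 against MSC and in MLC against MSC it gave 0. At most 1 of these fell in MLC against Hepatocyte, and at most 1 rose in Hepatocyte against MSC. For the F test the removal of 1 array gave 23 to 27, against 25. Without HD28 replicate 3, the array with high albumin, 6 rose in HD28 against MSC and 6 fell in dHD28 against HD28. Under every array left out 4 of 7, 6 of 8, 14 of 15 and 14 of 17 calls were kept in HD28 against MSC, dHD28 against HD28, MLC against Hepatocyte and Hepatocyte against MSC. The count of 3 members lower in the high spike-in class ranged from 0 to 4, with 0 without dHD28 replicate 2 or MSC replicate 1, and 1 without MLC replicate 2, MLC replicate 3 or MSC replicate 2. The replicate number as a block, which may pair dHD28 with HD28, left 7 of the 8 calls there, ending that of Mmp19 (-1.42, limma adjusted p = 0.0515), and added Adamts4 in MLC against Hepatocyte. No setting reversed a difference that had passed. Differences near 0 changed sign. In a fit blocked on spike-in class, Mmp13 in MLC against MSC was 0.12 and Timp2 0.019, and without HD28 replicate 3 too they were 0.16 and 0.044, and Timp1 in HD28 against MSC was 0.14. With housekeeping centring Timp1 in HD28 against MSC was 0.019, Timp4 -0.012 in dHD28 against MSC and 0.22 in Hepatocyte against MSC. Timp4 in MLC against Hepatocyte was 0.080 with the mean of its probe sets and 0.16 after quantile normalization, and in MLC against MSC 0.0061 with the mean. Leaving out 1 array gave -2.78 to 0.47 for Mmp13 in dHD28 against MSC and -2.93 to 0.27 in MLC against MSC, -0.11 to 0.18 for Timp1 in HD28 against MSC and -0.14 to 0.15 in MLC against MSC, and -0.10 to 0.064 for Timp2 in dHD28 against MSC. For Timp4 it gave -0.11 to 0.21 in dHD28 against MSC, -0.18 to 0.14 in Hepatocyte against MSC, -0.19 to 0.021 in MLC against Hepatocyte and -0.26 to 0.080 in MLC against MSC. The cause of these moves was not tested.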
